A study of Mus musculus with 10 samples.

Results

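The transcripts of 10 genes of the nuclear factor kappa B (NF-kB) system were followed in cultured mouse tongue epithelium that expressed viral oncogenes and active YAP. They were found by symbol in the deposited expression table, and all 10 of the 10 had a row among its 18586 rows. The set held 4 subunits of the transcription factor (Nfkb1, Nfkb2, Rela, Relb), 2 proteins of the inhibitor kappa B family (Nfkbia, Nfkbiz), and 4 restraining or survival genes (Tnfaip3, Birc3, Zfp36, Tnip1).

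RNA sequencing was performed on 10 libraries of primary cultures. Per the labels, GFP-positive cells of the tongue epithelium, collected 15 days after the transgenes were induced, were grown in culture before poly(A) RNA was sequenced. All cells of both groups carried the Krt14-CreERT driver, the LSL-rtTA reverse transactivator and the reporter tetON_H2B-GFP. EY cells had 2 more alleles, tetON_E6-E7 for human papillomavirus oncogenes and tetON_YAP1S127A for a constitutively active YAP mutant, which N cells lacked. Per the study's methods, all mice were given tamoxifen in the tongue, and all cultures grew with doxycycline, epidermal growth factor and cholera toxin. The Krt14 promoter limits recombination to epithelial cells that use it, which are mainly basal cells. The labels gave no age, sex or strain. The 6 EY libraries came from 3 culture lines with 2 libraries each, EY3960 (EY replicates 1 and 4), EY4028 (replicates 2 and 5) and EY4174 (replicates 3 and 6). N consisted of 4 libraries of 1 line, N4172. Genotype thus cannot be told apart from line, and p-values measured the spread between these libraries, which may be technical.

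NF-kB is a family of dimers held inactive in the cytoplasm by inhibitor kappa B proteins. In the canonical branch, cytokine receptors activate a kinase complex that destroys the inhibitor and frees dimers of RelA with the Nfkb1 product. In the noncanonical branch, the Nfkb2 precursor is trimmed and pairs with RelB. Several targets of the factor, among them Nfkbia, Tnfaip3 and Nfkb2 itself, encode its own brakes and subunits, so that these transcripts are widely used as readouts of the pathway. In oral and other stratified epithelia the pathway is known for driving cytokine and neutrophil chemokine genes.

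The binding sequence of the factor is shown first, because 4 of the 10 genes carry it close to a transcription start. RefSeq promoter windows on GRCm38.p6, from 250 bases before to 50 bases after each start, were found for 7 of the 10 genes. Nfkb1, Relb and Nfkbiz had no entry. The kB consensus was searched on both strands as a motif of 10 bases. It was present in at least 1 window of Nfkb2, Nfkbia, Tnfaip3 and Tnip1, against 5.96% of the 8590 tested genes with a window and 4.505% of all 32851 windows. It had no match in the windows of Rela, Birc3 and Zfp36, which says only that these letters were not in these windows. Each match is printed 5′ to 3′ on the strand of the gene with 9 bases on either side, and capitals mark the match, with overlapping matches joined.
Nfkb2 match 1: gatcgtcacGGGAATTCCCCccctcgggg
Nfkb2 match 2: gggccgaaaGGGGCTTTCCcggctggag
Nfkb2 match 3: ccgacggcaGGAATGTCCCcacaaaagc
Nfkb2 match 4: ggtattttcGGGACTTTCCtaagcagca
Nfkbia: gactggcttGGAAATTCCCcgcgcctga
Tnfaip3 match 1: atttccatcGGAAATCCCCctgttggca
Tnfaip3 match 2: actcacgcgGGGACACCCCggggcggga
Tnip1: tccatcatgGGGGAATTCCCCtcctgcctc

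Counted from the first base of the match, the Nfkb2 matches lay 39, 11 and 236 bases before a start and just after one of its 3 annotated starts. Coordinates here and below span all printed bases, with the 9 on either side of a match. Those of Nfkb2 were chr19:46304689-46304717, chr19:46304717-46304744, chr19:46305450-46305477 and chr19:46305696-46305723 on the plus strand. The Nfkbia match lay 29 bases before the start, at chr12:55492658-55492685 on the minus strand. The Tnfaip3 matches lay 12 and 125 bases before a start, at chr10:19015404-19015431 and chr10:19015517-19015544 on the minus strand. The Tnip1 match lay 58 bases before the start, at chr11:54962978-54963007 on the minus strand, and was a run in which 3 matches overlapped. Nfkb2 match 3 begins with GGAATG, the core bound by the TEAD partners of YAP. It was found in 14.66% of all windows and for 14% of the tested genes with a window. Of the 7 genes it was found at 1, Nfkb2, which has 3 windows, a share near that of tested genes. Both strands were searched. A loose AP-1 motif, TGANTCA with any middle base, was found in 7.808% of windows and for 6.112% of the tested genes with a window. It occurred at Nfkb2 as TGAATCA and at Tnfaip3 as TGACTCA. All of these are matches of letters and not measured binding.

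Levels were given as TPM, a relative scale corrected for transcript length and library size, and differences were tested with limma on log2(TPM + 1). The TPM values keep no depth, so the number of reads behind a value is unknown. Between 10852 and 11522 genes reached 1 TPM in a library, and mitochondrial transcripts made up 14.1% to 20.5% of the TPM, without a split between EY and N. The epithelial label held, with 10 of 10 epithelial markers at 1 TPM or more in at least 1 library and Krt14 between 2517 and 4252 TPM. The summed level of the 10 was 4455 to 7353 TPM in EY and 5478 to 6182 TPM in N. The EY3960 libraries, at 4455 and 4736 TPM, lay below all N libraries. Between EY and N, 2 of the 10 rose and 2 fell at an adjusted p under 0.05 (limma). Of 18 immune markers, 8 had a row, and 5 of them reached 1 TPM in at least 1 library. The summed level of the 8 was 50.2 to 160.5 TPM in EY and 50.2 to 83.6 TPM in N. Ptprc, which marks all leukocytes, reached at most 0.347 TPM and Csf1r of macrophages 0.0582 TPM. These 2 do not speak for the markers that reached 1 TPM, and the results of the list by line are given below. S100a8 and S100a9, which stressed keratinocytes also express, were higher in every EY library than in any N library. The 6 listed fibroblast and endothelial markers with a row summed to at most 1.15 TPM. The Yap1 row was at 34.7 to 57.1 TPM in EY and 17.2 to 20.9 TPM in N. Whether transcripts of the YAP1S127A allele were counted in this row is not known. N replicate 4 stood off from its group in several measures below, so values are also given without it where it matters. In such bulk cultures, more cells that transcribe a gene and more transcript per cell cannot be told apart.

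Of the 10 genes, 6 rose in EY at an adjusted p under 0.05 in the limma fit, against 14.3% of the 11630 genes tested. These were Nfkb2, Relb, Nfkbia, Nfkbiz, Zfp36 and Tnip1. The count that fell was 0, against 10.2% of tested genes. At an unadjusted p under 0.05 in that fit it was also 0, against 1896 of the 11630. With line as a random block, which treats the 2 libraries of an EY line as related, 3 of the 6 passed (Relb, Nfkbiz and Zfp36). With 1 mean per line 0 did. In 5 of the 6, all but Tnip1, every EY library lay above every N library, against 11.3% of tested genes. The median log2 difference of the 10 was 0.70, beside 0.03 over all tested genes. Of the 10 differences 9 were above 0, as were 6276 of the 11630 over all tested genes. Under the stricter rule of the study (adjusted p under 0.01 and a log2 difference over 1) only Nfkb2 was called, against 1.85% of tested genes called higher. All 10 passed the filter on low values (at least 1 TPM in at least 4 libraries), and 9 were at 1 TPM or more in every library, Birc3 being the exception with 7.

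**Figure D1:**
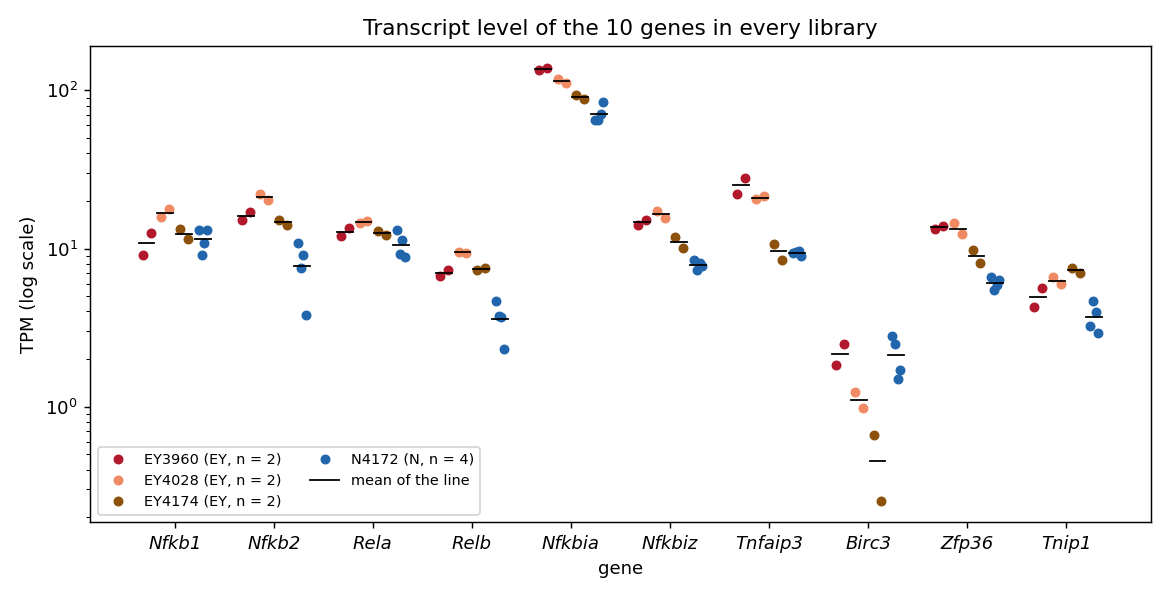
Transcript level in TPM on a log axis for each of the 10 genes, with 1 point per library, 3 EY lines of 2 libraries each in red to brown, N4172 with 4 libraries in blue, and black bars for the mean of a line. Nfkb2, Relb, Nfkbia, Nfkbiz and Zfp36 have all 6 EY points above all 4 N points, Tnfaip3 is high in 2 EY lines only, and Birc3 is the only gene whose EY mean (1.24 TPM) lies below its N mean (2.13 TPM).

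Among the subunits, the pair of the noncanonical branch rose and the pair of the canonical branch did not pass the test. Nfkb2, the noncanonical precursor, read 15.04 and 17.1 TPM in EY3960, 22.0 and 20.1 TPM in EY4028, and 15.3 and 14.1 TPM in EY4174, against 10.8, 7.58, 9.05 and 3.81 TPM in N replicates 1 to 4. The lowest EY library was above the highest N library, and N replicate 4 was the lowest of all. The means were 17.3 ± 3.15 (SD, n = 6) and 7.80 ± 2.96 TPM (SD, n = 4), a log2 difference of 1.11 with a standard error (SE) of 0.22 and an adjusted p of 0.0041. Without N replicate 4 the difference was 0.85 with an adjusted p of 0.0032, so that Nfkb2 still rose but was no longer past the log2 limit of 1. Without EY replicate 2, EY replicate 5 or N replicate 2 the difference stayed above 1 (1.04, 1.07 and 1.12), but the adjusted p of 0.0101, 0.0107 and 0.015 missed the call limit of 0.01. It was also not called without line EY3960 (1.15, adjusted p 0.0126) or line EY4028 (0.97, adjusted p 0.026). With line as a random block its adjusted p was 0.13.

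Relb, which encodes the partner of the trimmed Nfkb2 product, read 6.68 and 7.31 TPM in EY3960, 9.46 and 9.41 TPM in EY4028, and 7.36 and 7.49 TPM in EY4174. In N it read 4.63, 3.77, 3.67 and 2.32 TPM, so the groups were apart and N replicate 4 was again the lowest. Its means were 7.95 ± 1.18 (SD, n = 6) and 3.60 ± 0.957 TPM (SD, n = 4), and its log2 difference of 0.98 (SE 0.15, adjusted p 0.00092) fell just short of the limit of 1. Without N replicate 4 it was 0.83, with an adjusted p of 0.0014.

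Nfkb1, the precursor of the canonical dimer, read 9.16 and 12.6 TPM in EY3960, 15.9 and 17.8 TPM in EY4028, and 13.2 and 11.5 TPM in EY4174, against 13.0, 9.05, 10.9 and 13.0 TPM in N. The ranges overlapped, and only the EY4028 libraries lay above all N libraries by more than 2 TPM. The log2 difference was 0.19 with an SE of 0.17 and an adjusted p of 0.45. Rela, the main transactivating subunit, read 11.9 and 13.5 TPM in EY3960, 14.6 and 14.9 TPM in EY4028, and 12.8 and 12.1 TPM in EY4174, against 13.0, 9.19, 11.3 and 8.86 TPM in N. Here too the ranges overlapped, through N replicate 1. The difference was 0.32 (SE 0.12), with an adjusted p of 0.070, and without N replicate 1 it was 0.41 with an adjusted p of 0.033.

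Transcripts of the subunits were also compared inside each library, where library scaling cancels. Such ratios do not measure the activity of either branch, and Nfkb2 is itself a target of the factor. The ratio of Nfkb2 to Nfkb1 TPM was 1.64 and 1.36 in EY3960, 1.38 and 1.13 in EY4028, and 1.15 and 1.23 in EY4174. In N it was 0.828, 0.837, 0.832 and 0.293, so the EY libraries had more Nfkb2 than Nfkb1 and the N libraries less. The ratio of Relb to Rela was 0.595 ± 0.0435 (SD, n = 6) in EY, from 0.540 to 0.649, and 0.338 ± 0.0620 (SD, n = 4) in N, from 0.261 to 0.410. Neither ratio overlapped between the groups, with or without N replicate 4. The ratio of Nfkbia to Rela did overlap, at 7.30 to 11.2 in EY and 4.96 to 9.50 in N. That of Tnfaip3 to Birc3 did not, at 11.3 to 33.4 in EY and 3.34 to 6.43 in N. All of these ratios were chosen after the values were seen and were not tested. The share of all gene pairs whose ratios set the groups apart was not computed.

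**Figure D2:**
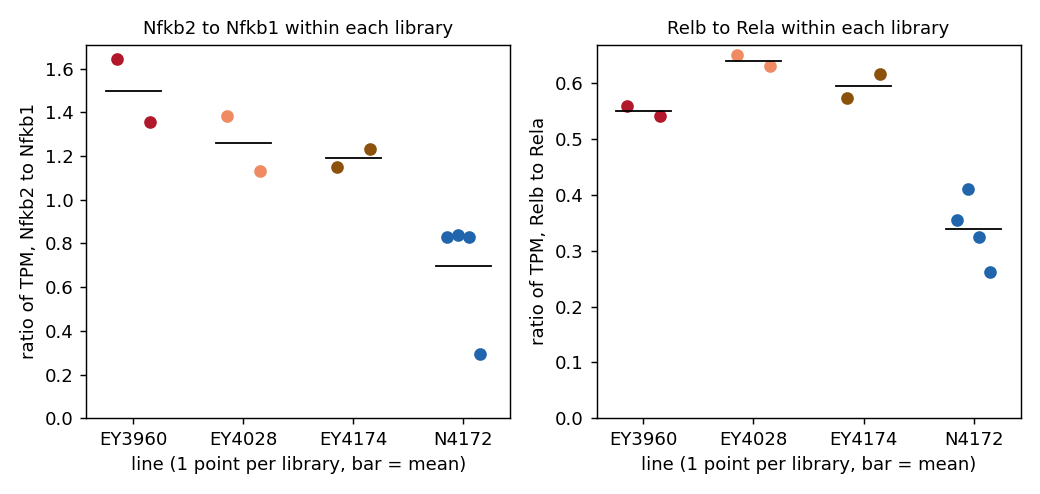
Ratio of TPM within each library for Nfkb2 to Nfkb1 (left) and Relb to Rela (right), by line, with 1 point per library and a bar for the mean of the line, on axes that start at 0. All 6 EY points lie above all 4 N points in both panels, and 1 N point in the left panel, N replicate 4 at 0.293, lies far below the other 3.

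Both members of the inhibitor kappa B family rose. Nfkbia, which encodes the inhibitor that holds RelA in the cytoplasm and is resynthesized as feedback, was the most abundant of the 10 genes in every line. It read 134 and 139 TPM in EY3960, 118 and 111 TPM in EY4028, and 93.8 and 88.7 TPM in EY4174, against 64.6, 64.7, 70.6 and 84.2 TPM in N. The groups did not overlap, although N replicate 4, here the highest of N, came within 5 TPM of the lower EY4174 library. The means were 114 ± 20.6 (SD, n = 6) and 71.0 ± 9.19 TPM (SD, n = 4), with a log2 difference of 0.67 (SE 0.13, adjusted p 0.0042, and 0.058 with line as a random block). Nfkbiz encodes a nuclear inhibitor-like protein that is needed for a secondary set of targets. It read 14.0 and 15.2 TPM in EY3960, 17.2 and 15.7 TPM in EY4028, and 11.9 and 10.1 TPM in EY4174, against 8.51, 7.29, 8.12 and 7.75 TPM in N. Again no N library reached the lowest EY library. The log2 difference was 0.73 (SE 0.13, adjusted p 0.0024).

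The genes that act on ubiquitin chains upstream of the kinase complex behaved less uniformly. Tnfaip3, a ubiquitin-editing enzyme that ends signalling from tumor necrosis factor and Toll-like receptors, read 22.1 and 28.0 TPM in EY3960 and 20.5 and 21.4 TPM in EY4028, but 10.7 and 8.51 TPM in EY4174. In N it held between 8.95 and 9.66 TPM in all 4 libraries. The EY4174 libraries thus lay on either side of the N range while the other 4 EY libraries were above 20 TPM. Over all EY libraries the log2 difference was 0.81 with an SE of 0.28 and an adjusted p of 0.060. It passed without EY replicate 3 (0.94, adjusted p 0.031) or EY replicate 6 (1.00, adjusted p 0.0074), both of EY4174. Tnip1, an adaptor that brings the Tnfaip3 product to its substrates, read 4.24 and 5.65 TPM in EY3960, 6.57 and 5.96 TPM in EY4028, and 7.56 and 6.97 TPM in EY4174. In N it read 3.24, 4.65, 3.99 and 2.93 TPM, and only EY replicate 1 fell within that range. Its log2 difference was 0.60 (SE 0.15, adjusted p 0.014, and 0.19 with line as a random block). Birc3, a ubiquitin ligase of the inhibitor of apoptosis family that limits the noncanonical branch, was the lowest of the 10 genes in every line. It read 1.84 and 2.48 TPM in EY3960, 1.24 and 0.973 TPM in EY4028, and 0.657 and 0.254 TPM in EY4174, against 2.80, 2.50, 1.50 and 1.71 TPM in N. The ranges overlapped through EY3960, and the log2 difference of -0.54 (SE 0.26) had an adjusted p of 0.15.

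Zfp36 encodes an RNA-binding protein that speeds the decay of cytokine mRNAs with AU-rich elements. It read 13.3 and 13.9 TPM in EY3960, 14.5 and 12.3 TPM in EY4028, and 9.80 and 8.08 TPM in EY4174, against 6.63, 5.46, 5.90 and 6.28 TPM in N. The groups were apart, with the EY4174 libraries nearest to N. Its means were 12.0 ± 2.52 (SD, n = 6) and 6.07 ± 0.502 TPM (SD, n = 4), a log2 difference of 0.85 (SE 0.15, adjusted p 0.0019).

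On the TPM scale the order of levels differed between the lines below the top rank. In N, after Nfkbia at 71.0 TPM, came Nfkb1 (11.5 TPM), Rela (10.6 TPM) and Tnfaip3 (9.36 TPM), with ranges that overlapped one another. Nfkb2 was the sixth in N with a mean of 7.80 TPM, whereas it was the third in EY3960 at 16.1 TPM and the second in EY4028 at 21.1 TPM and in EY4174 at 14.7 TPM. In EY4028 its range enclosed that of Tnfaip3, the third at 20.9 TPM. Relb was the eighth in all 3 EY lines, just above Tnip1, and the ninth in N, just below it, and the ranges of the 2 genes overlapped in EY4174 and in N.

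Each EY line was then set against N. These contrasts share the 4 N libraries, so they are not independent of one another. In EY3960, 6 genes rose at an adjusted p under 0.05 (background 16.4%), in EY4028 9 (background 20.1%) and in EY4174 6 (background 14.5%). Nfkb2, Relb, Nfkbia, Nfkbiz and Zfp36 passed in each of the 3 contrasts, as did 6.34% of tested genes. That count of 5 was 1, Relb, without EY replicate 3, and 3 without EY replicate 4, EY replicate 6 or N replicate 2, where 1 line or N rests on fewer libraries. Under the stricter rule, Tnfaip3 and Zfp36 were called in EY3960 (background 3.96%), Nfkb2, Relb, Tnfaip3 and Zfp36 in EY4028 (background 3.56%), and none was called higher in EY4174 (background 2.01%). No gene was called in all 3 lines under that rule. Birc3 was called lower in EY4174, as were 2.94% of tested genes.

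**Figure D3:**
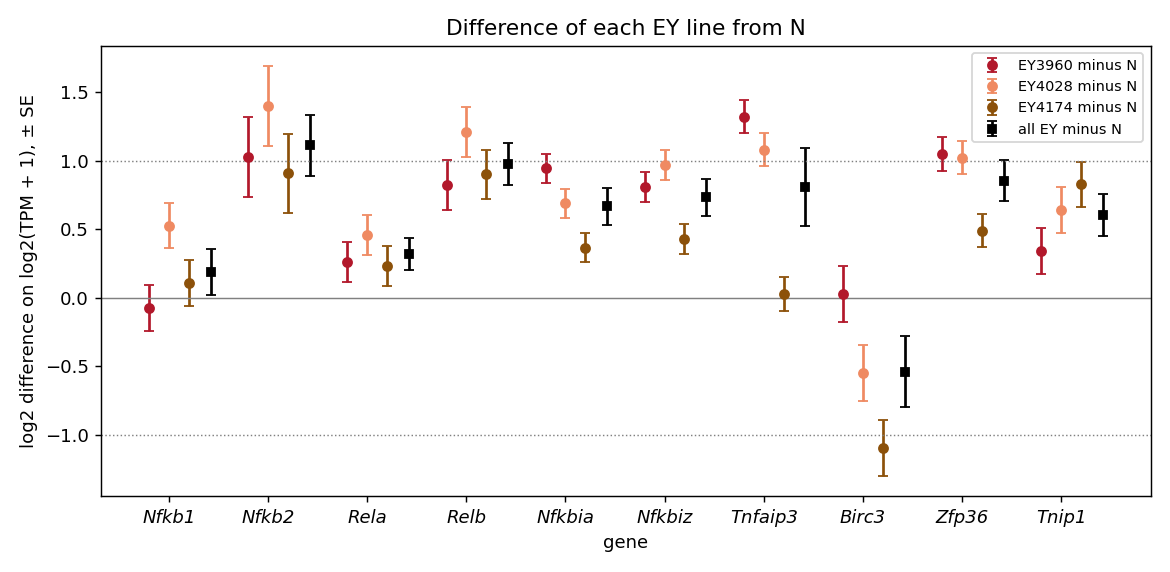
Difference on the log2(TPM + 1) scale between each EY line (2 libraries) and N (4 libraries), and between all EY libraries and N, for each of the 10 genes, with bars for 1 SE of the fitted difference and dotted lines at 1 and -1. Nfkb2 and Relb are raised in all 3 lines, whereas Tnfaip3 is at 1.32, 1.08 and 0.03 in EY3960, EY4028 and EY4174 and Birc3 at 0.03, -0.55 and -1.10.

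The 3 lines differed most at Tnfaip3, the 1 gene of the 10 called between EY lines (background 5.12%). Its log2 difference from N was 1.32 (SE 0.12) in EY3960, 1.08 (SE 0.12) in EY4028 and 0.03 (SE 0.12) in EY4174, and the F test over the lines gave an adjusted p of 0.00023. EY3960 and EY4174 were 1.29 apart (SE 0.14). At an adjusted p under 0.05, which 19.1% of tested genes passed, 5 of the 10 genes differed between lines. Besides Tnfaip3 these were Nfkbia, Nfkbiz, Zfp36 and Birc3. Nfkbia stood 0.94, 0.69 and 0.36 above N in EY3960, EY4028 and EY4174 (adjusted p between lines 0.020). Nfkbiz stood 0.81, 0.97 and 0.43 above N (adjusted p between lines 0.030). Zfp36 stood 1.05, 1.02 and 0.49 above N (adjusted p between lines 0.028). In these 3 genes and Tnfaip3 the smallest difference was that of EY4174. Birc3 was 1.12 lower in EY4174 than in EY3960 (SE 0.24, adjusted p between lines 0.021).

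The other 5 genes did not pass that threshold between lines. Nfkb2 differences from N were 1.03, 1.40 and 0.91 in EY3960, EY4028 and EY4174 (SE 0.29 each), and its adjusted p between lines was 0.49. Relb gave 0.82, 1.21 and 0.90 (SE 0.18 each), with an adjusted p of 0.34. For both, EY4028 held the highest libraries, yet the largest distance between lines was 0.49 (SE 0.33) for Nfkb2 and 0.39 (SE 0.21) for Relb. Tnip1 gave 0.34, 0.64 and 0.83 (adjusted p between lines 0.19), so that its largest value was in EY4174, where Tnfaip3 had its smallest. Rela rose in EY4028 alone by the test (0.46, SE 0.15, adjusted p 0.037), and so did Nfkb1 (0.53, SE 0.17, adjusted p 0.034), with adjusted p between lines of 0.52 and 0.097.

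Across the 10 libraries, the genes that rose did not all vary alike. Correlations of log2(TPM + 1) are given as a description, since the libraries came from only 4 lines and share their scaling. Nfkb2 and Relb were the closest pair of subunits (Pearson r 0.976), and Relb ranked as the fifth most similar of all tested genes to Nfkb2. Nfkbiz and Zfp36 had an r of 0.986, and Zfp36 was the gene most like Nfkbiz among all genes tested. Nfkbia was most like Zfp36 among the 10 (0.946), and so was Tnfaip3 (0.904). Nfkb2 and Nfkbia reached 0.642. Birc3 correlated with no member above 0.173 and was lowest against Tnip1, at -0.684.

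Outside the set, the tested gene most similar to each member was found over the same 10 libraries. It was Sbno2 for Nfkb2 (r 0.992), Smap2 for Relb (0.984), Gatad2a for Nfkb1 (0.950) and Sesn2 for Rela (0.959). For the inhibitors it was Procr for Nfkbia (0.997) and Xrcc5 for Nfkbiz (0.985). For the remaining genes it was AC159200.1 for Tnfaip3 (0.994), Cops4 for Tnip1 (0.964), Rab27b for Birc3 (0.969) and Gm48643 for Zfp36 (0.991). These values rest on 4 lines, and nothing is drawn from them about shared function or control.

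The wider pathway was read from lists written from general knowledge. Counts of these lists treat the libraries of a line as independent. With line as a random block, 2 other subunits and inhibitors, 2 kinases and adaptors, 0 receptors, 3 ligands and 10 target genes rose at an adjusted p under 0.05. With 1 mean per line, 2 target genes rose and 0 genes of the other lists did. Of 22 other subunits and inhibitors, 18 were tested, 4 rose and 1 fell (background 14.3% and 10.2%), and their median log2 difference was 0.24. The 4 that rose were 2 to 4 when 1 library was left out, and 2 without EY replicate 2, 4 or 5 or N replicate 2 or 3. Nfkbib, a further inhibitor kappa B protein, was at 27.0 ± 1.41 TPM in the 6 EY libraries and 18.0 ± 0.368 TPM in the 4 N libraries (means ± SD), a difference of 0.56 (SE 0.07, adjusted p 0.00023). Zc3h12a, an RNase that degrades cytokine mRNAs, was the only one called, at 1.12 (SE 0.19, adjusted p 0.0013). Its level was low, at 3.40 ± 1.00 TPM in EY and 1.01 ± 0.375 TPM in N. None was called with 1 TPM required in every library, without line EY4028 or with line as a random block. The same held with 1 mean per line and with the sample numbers as a replicate block. Traf3, which keeps the noncanonical kinase low, rose by 0.34 (adjusted p 0.042) and Rnf11, a partner of the Tnfaip3 product, by 0.47 (adjusted p 0.045). Birc2, the close relative of Birc3, was at 10.6 ± 1.66 TPM in EY and 14.1 ± 1.38 TPM in N and fell by 0.39 on the log2 scale (SE 0.12, adjusted p 0.034).

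Kinases and adaptors showed no common direction, with a median of 0.04 over 33 tested of 35 and 3 that rose (5 without N replicate 4) against 4 that fell, shares near those of all tested genes (14.3% higher and 10.2% lower). Card10, a scaffold that links membrane receptors to the kinase complex, was at 9.29 ± 1.42 TPM in EY and 3.97 ± 0.440 TPM in N. Its log2 difference of 1.04 (SE 0.12, adjusted p 0.00014) was the only one called, though not without N replicate 2, without line EY4028 or with 1 mean per line. Ikbke, a relative of the inhibitor kappa B kinases, rose by 0.83 and Sharpin, a subunit of the linear ubiquitin ligase, by 0.65 (adjusted p 0.0014 and 0.0077). Traf5, Ripk1, Traf6 and Rnf31, adaptors and ligase subunits of the receptor complexes, fell by 0.81, 0.52, 0.50 and 0.59 on the log2 scale (adjusted p 0.0026, 0.0094, 0.0098 and 0.046). Of 25 receptors, 13 were tested and 2 rose, a share near the 14.3% of all tested genes, namely Tnfrsf12a by 0.27 (adjusted p 0.028) and Tlr4 by 0.48 (adjusted p 0.047). The 2 that rose were 0 without EY replicate 2 or 3 or N replicate 1, 2 or 3. Tnfrsf10b, the next by p, differed by 0.32 with an adjusted p of 0.075.

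Only 6 of 24 ligands were tested, and 3 rose and 1 fell (background 14.3% and 10.2%). The 3 include Tnf, which was tested only through its level in EY. With 1 TPM required in every library, 1 ligand rose. Tnf, the prototype inducer of the canonical branch, was at 3.18 and 2.60 TPM in EY3960, 7.60 and 6.27 TPM in EY4028, and 5.48 and 4.78 TPM in EY4174. In N it was at 0.0948, 0.101, 0.178 and 0.677 TPM. Its level was thus higher in every EY library, and it passed the filter through the EY libraries alone. Its fitted log2 difference was 2.20 (SE 0.24), and no p-value is given, since it was tested only through its level in EY. Il1a, an alarmin of keratinocytes, was at 38.5 ± 12.3 TPM in EY and 13.8 ± 1.03 TPM in N, a difference of 1.36 (adjusted p 0.00054), and Tnfsf15 differed by 1.25 (adjusted p 0.00099). Il18 fell by 0.87 (adjusted p 0.014).

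Several target genes outside the 10 had larger differences than any of the 10. Of 41 listed, 27 were tested, 14 rose, 0 fell (1 at an unadjusted p under 0.05) and 7 were called, with a median log2 difference of 0.66. Of all tested genes 14.3% rose, 10.2% fell and 1.85% were called higher. Among the listed targets, 3 genes, Ccl20, Csf2 and Csf1, passed the filter through EY alone. With 1 TPM required in every library, 11 target genes rose and 5 were called. The smallest adjusted p was that of Tnfaip2, at 43.2 ± 4.22 TPM in EY and 8.55 ± 1.37 TPM in N (2.21, SE 0.11, adjusted p 2.4e-07). Gadd45b, a stress-response gene, was at 89.2 ± 9.95 and 28.1 ± 0.940 TPM (1.62, SE 0.09, adjusted p 3.7e-07), and Cxcl1, a neutrophil chemokine, at 803 ± 115 and 215 ± 23.2 TPM (1.89, SE 0.11, adjusted p 9.4e-07). The largest difference among the 10 was the 1.11 of Nfkb2. Cxcl3, chosen after its values were seen, had the lowest fitted difference of the list, -3.73 with an SE of 1.46 and an adjusted p of 0.10. Its mean was 0.0441 TPM in EY3960 and 0.461 TPM in EY4174 (adjusted p 2.9e-09 and 9.4e-09 against N), but 60.3 TPM in EY4028, where N also averaged 60.3 TPM (adjusted p 0.92).

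**Figure D4:**
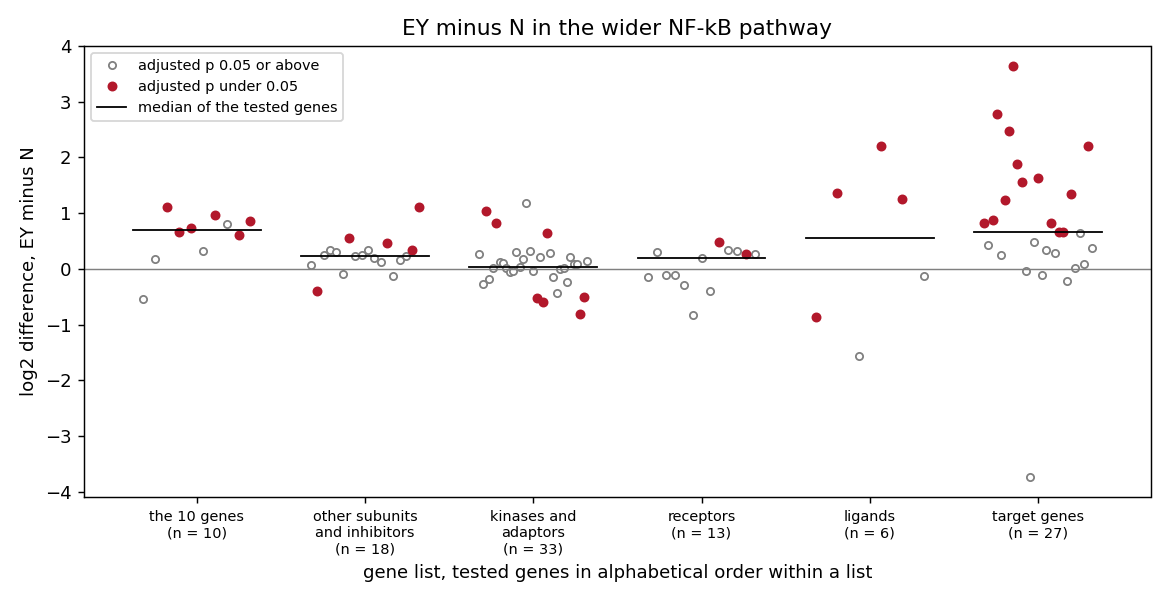
Log2 difference between EY and N on the log2(TPM + 1) scale for each tested gene of 6 lists, with filled points for an adjusted p under 0.05, open points for the rest, and a bar for the median of the tested genes in a list. The medians are 0.70 for the 10 genes, 0.24 for other subunits and inhibitors, 0.04 for kinases and adaptors, 0.20 for receptors, 0.56 for ligands and 0.66 for target genes. Points and medians include Tnf among the ligands and Ccl20, Csf2 and Csf1 among the target genes, which passed the filter through EY alone.

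Further lists touched on Zfp36 and on the induced YAP allele, and their counts stand against 14.3% of all tested genes that rose and 10.2% that fell. These counts too treat the libraries of a line as independent. With line as a random block, 1 mRNA decay factor, 4 immediate early genes and 4 genes of the YAP list rose. With 1 mean per line 0 rose in each of them. Of 16 mRNA decay factors of the Zfp36 kind, all tested, 3 rose (Zc3h12a, Tial1 and Elavl1, with 1 left without EY replicate 2 or 5 or N replicate 1, 2 or 4) and Cnot7, a deadenylase subunit, fell by 0.55 (adjusted p 0.0047). The differences of Tial1 and Elavl1 were 0.29 and 0.23, with adjusted p of 0.025 and 0.046. Of 22 immediate early genes, which like Nfkbia and Zfp36 respond within minutes to many stimuli, 19 were tested, 8 rose and 1, Fosb, fell by 1.01 (adjusted p 0.011). The smallest adjusted p there belonged to Cyr61, Atf3 and Junb, which rose by 2.35, 1.64 and 0.62. Of 14 genes of the YAP pathway and its targets, 13 were tested, 7 rose and 1 fell, namely Tead2, by 0.96 (adjusted p 0.015). Cyr61 stood on this list too, followed by Amotl2 (1.44) and Tead4 (0.93). The EY4174 line, in which Tnfaip3 read close to N, had the highest values of the Yap1 row, 57.1 and 54.9 TPM. These may include the YAP1S127A allele, and their part in the result was not tested. In the immune list, S100a8 was called higher at 2.52 (adjusted p 0.0091) and S100a9 rose by 2.88 (adjusted p 0.011). Both were highest in EY3960, the line with the highest Nfkbia and Tnfaip3, and their part in those levels was not tested. Of the 4 tested genes of the immune list, 4 rose in EY3960 at an adjusted p under 0.05 (background 16.4%). In EY4028 2 rose (background 20.1%), and in EY4174 2 rose (background 14.5%) and 1 fell. Between the EY lines 3 of the 4 were called (background 5.12%).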

How the data were processed

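The study measured poly(A) RNA in 10 libraries, 6 EY and 4 N, grouped by the genotype in the labels. The deposited table held TPM per gene symbol, as the authors computed it. The submitters' processing notes name STAR 2.7.9, SAMtools 1.7, HTSeq 0.13.5, DESeq2 1.34.0 and the build GRCm39, while for enrichment analyses the study's methods describe Kallisto against the human transcriptome, with TPM taken from the highest transcript of a gene. Which of these gave the deposited TPM, listed under mouse symbols, is not given in the sources used here. TPM holds no read counts, so no count model was used and no depth can be stated.

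Of 18586 genes, the 11630 that reached 1 TPM in 4 or more libraries were tested with limma 3.58.1 in R 4.3.3 on log2(TPM + 1), which understates the change of low genes, with trended and robust moderation. One fit compared EY with N, and a second fit of the 4 line means compared each EY line with N and, by an F test, the EY lines with each other. P-values were adjusted by Benjamini-Hochberg over all tested genes. The call rule (adjusted p under 0.01 and a log2 difference over 1) followed the study, and a second rule was an adjusted p under 0.05 at any size. The fits were tested on simulated data that held no difference between lines other than the changes added. That test cannot show how an effect of line acts on the EY against N fit. The 10 genes and the lists were chosen with earlier results of these data known. Named from each list were the 3 tested genes with the smallest adjusted p and all genes of a count of 5 or fewer. Motifs were searched in RefSeq promoter windows of GRCm38.p6, whose coordinates are not those of GRCm39. Alternatives to pseudocount, filter, scaling, moderation, libraries and lines were run.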

Additional observations from a re-analysis of the deposited data

Results flagged for a closer look

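In 52 groups of values (10 genes, 4 ratios and 12 list sums, in EY and in N), 3 had a sample far from the others by Dixon's criterion at 95%, and chance flags about 2.6 of them. The ratio of Nfkb2 to Nfkb1 was 0.293 in N replicate 4 and 0.828 to 0.837 in the other N libraries. The summed TPM of the ligands was 360.5 in N replicate 4 and 163 to 194 in the other N libraries. The summed TPM of the receptors was 535.9 in EY replicate 3 and 491 to 505 in the other EY libraries.

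For 5 genes the difference from N was not the same in the 3 EY lines by the F test between lines. The adjusted p was 0.00023 for Tnfaip3, 0.020 for Nfkbia, 0.021 for Birc3, 0.028 for Zfp36 and 0.030 for Nfkbiz. In EY4174 Tnfaip3 read 10.7 and 8.51 TPM, within 2 TPM of the N range, while Nfkb2 and Relb rose there by 0.91 and 0.90 on the log2 scale.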

How the results depend on the processing

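No difference between EY and N changed its sign for any of the 10 genes under any alternative. Of 239 refits of single genes, 220 stayed on the same side of an adjusted p of 0.05, 11 lost it and 8 gained it. The count of called genes, 1 in the report, was 2 with a pseudocount of 0.1 or 0.5 (Nfkb2 and Relb), 0 without line EY4028, 4 without line EY4174 (Nfkb2, Relb, Tnfaip3 and Zfp36), 0 with line as a random block, 0 with 1 mean per line and 0 with the labels' sample numbers as a replicate block. Leaving out 1 library gave 0 to 2, with 0 without EY replicate 2, EY replicate 5 or N replicate 4 and 2 without EY replicate 1 or N replicate 1. Without N replicate 2 the 1 gene was Relb.

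The count at an adjusted p under 0.05, 6 in the report, was 3 with line as a random block (Relb, Nfkbiz and Zfp36) and 0 with 1 mean per line, a fit with 2 residual degrees of freedom in which 14 genes of 11630 passed and 2 were called. The other alternatives gave 5 to 8. Tnfaip3 passed without EY replicate 3 or 6, without line EY4174 (1.20, adjusted p 5.2e-05), and with quantile or median ratio scaling. Rela passed without N replicate 1 and with quantile scaling, and Birc3 without line EY3960 (-0.82, adjusted p 0.018). Tnip1 did not pass without line EY4028 (adjusted p 0.057) or with the replicate block (adjusted p 0.14). The count passing in all 3 lines, 5 in the report, ran from 1 to 5 when a library was left out, with 1 without EY replicate 3 and 3 without EY replicate 4, EY replicate 6 or N replicate 2. Tnfaip3 stayed the 1 gene called between lines throughout.

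Over all genes, 413 were called in the report, 216 with 1 TPM required in every library, 203 with line as a random block, 2 with 1 mean per line and 221 with the replicate block. The difference of sample 1 from sample 2 was not shared between lines across genes (r from -0.15 to 0.05). This does not decide whether the numbers pair samples, since the further N samples were not compared. Among the lists, the 3 mRNA decay factors that rose were 1 to 4 when a library was left out. The precision is limited by 4 lines, of which N is 1, and the depth is unknown.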
